A study of Mus musculus with 9 samples.

Results

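The genes described here carry out glycolysis and the pentose phosphate pathway, gate the entry of pyruvate into mitochondria, or belong to the transcriptional response to low oxygen. A list of 33 genes was matched by symbol to 2 tables of RNA-sequencing reads, and all 33 were found in each, among 36442 genes of the epidermal table and 24016 gene symbols of the regulatory T cell (Treg) table. Pkm is written as Pkm2 in the epidermal table and was counted once. In the Treg table each gene is represented by its RefSeq transcript with the highest mean. The material was 9 mouse samples obtained by flow sorting. The keratinocytes of adult epidermis came from the Mi2 group (n = 2) and the WT group (n = 2). The Tregs, assigned to skin-draining lymph nodes, were TSLPR-negative Tregs of Mi2 mice (n = 1), TSLPR WT Tregs of Mi2 mice (n = 2) and Ctl Tregs (n = 2). The column names of the tables mark the Mi2 libraries as knockouts, call the Ctl libraries WT and call the Tregs skin Tregs. The column of the TSLPR-negative library bears an abbreviation, TMDKO, that the labels do not explain; it was read as that sample because both lack a replicate number and the other 4 Treg names are taken. Mi2 is read here as Mi-2β, encoded by Chd4, a chromatin-remodelling ATPase; TSLPR, encoded by Crlf2, is a receptor chain of the epithelial cytokine TSLP. The sources used here name no promoter, Cre line, strain or age beyond adult for the epidermis, and do not say whether 2 libraries of a group came from separate mice, so p-values measure only the spread between these libraries.

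Glycolysis turns glucose into pyruvate, and lactate dehydrogenase turns pyruvate into lactate. The pentose phosphate pathway branches off after hexokinase and supplies NADPH and ribose for nucleotide synthesis. Under low oxygen the factor HIF-1α escapes hydroxylation by the EGLN enzymes and degradation, and with its partner ARNT it raises transcription of many glycolytic genes, of Car9 and of Egln3 itself. Epidermal keratinocytes and activated T cells are both known for high rates of glycolysis.

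The epidermal libraries held 5682391 to 8913804 reads and the Treg libraries 21849381 to 32238992. Chd4 had 734 and 1207 normalized reads in Mi2 epidermis, against 1607 and 1942 in WT epidermis, and all 6 keratinocyte markers were present in every epidermal library. Foxp3, the defining Treg factor, lay between 11160 and 15370 normalized reads in the 5 Treg libraries, where the keratinocyte genes Krt5, Krt14 and Trp63 were at 0. The 6 keratinocyte markers summed to 40.6 to 86.6 normalized reads in these libraries, almost all from Krt10 and Dsp. Crlf2 had 51.5 normalized reads in TSLPR-negative Tregs, 816 and 715 in TSLPR WT Tregs of Mi2 mice, and 395 and 742 in Ctl Tregs. Chd4 had 15390 in TSLPR-negative Tregs, 12370 and 13660 in TSLPR WT Tregs of Mi2 mice, and 11760 and 15130 in Ctl Tregs. The Treg groups of 2 thus overlapped for Chd4, unlike those of the epidermis. The 2 tables were scaled separately, so a level is compared only within a table. In sorted bulk samples, fewer cells of a type and less RNA per cell cannot be told apart.

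Promoters of members are shown first, because the hypoxia factors bind the hypoxia response element, of which ACGTG is a core sequence. Only ACGTG was searched, and the core below means this form. Other forms, such as GCGTG, were not counted. RefSeq promoters (GRCm38.p6, 250 bases before to 50 after the gene start) were matched for all 33 genes, which have 48 promoters. ACGTG on either strand was present in 23 of these 48 promoters (47.9%), against 6447 of all 32851 promoters (19.6%). Per gene, 20 of 33 members had at least 1 promoter with the core, against 21.8% of 27025 genes. The core contains a CpG, and the promoters were not matched for base composition. The list includes genes of the response to low oxygen by design, so the comparison with all genes is not a test. Members also have more promoters per gene than all genes do, which raises the share per gene. A CACGTG site, the palindromic E-box, counts as a match on both strands, and 5 of the 48 promoters held it, against 7.15% of all promoters. The 250 bases before the start are given below for Hk2 (chr6:82774455-82774704, minus strand), Pgk1 (chrX:106186850-106187099, plus strand), Ldha (chr7:46845554-46845803, plus strand), Egln3 (chr12:54203875-54204124, minus strand) and Car9 (chr4:43506776-43507025, plus strand). The first 4 of these genes rose in both cell types, as described further on, and Car9 rose in keratinocytes. Capitals mark ACGTG or its reverse complement.
Hk2: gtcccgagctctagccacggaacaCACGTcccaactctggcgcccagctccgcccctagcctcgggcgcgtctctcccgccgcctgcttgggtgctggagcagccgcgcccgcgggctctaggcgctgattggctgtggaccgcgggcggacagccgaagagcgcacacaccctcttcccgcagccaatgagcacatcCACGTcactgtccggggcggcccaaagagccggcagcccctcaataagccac
Pgk1: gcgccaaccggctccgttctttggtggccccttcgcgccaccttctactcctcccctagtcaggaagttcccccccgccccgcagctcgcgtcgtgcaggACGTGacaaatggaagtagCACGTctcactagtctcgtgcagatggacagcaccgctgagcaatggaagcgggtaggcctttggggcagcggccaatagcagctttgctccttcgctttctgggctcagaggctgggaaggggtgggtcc
Ldha: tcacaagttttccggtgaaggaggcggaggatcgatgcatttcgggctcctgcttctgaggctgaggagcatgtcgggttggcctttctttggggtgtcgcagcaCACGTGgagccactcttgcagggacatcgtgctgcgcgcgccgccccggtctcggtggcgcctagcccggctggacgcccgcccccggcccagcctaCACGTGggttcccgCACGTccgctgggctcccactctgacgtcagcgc
Egln3: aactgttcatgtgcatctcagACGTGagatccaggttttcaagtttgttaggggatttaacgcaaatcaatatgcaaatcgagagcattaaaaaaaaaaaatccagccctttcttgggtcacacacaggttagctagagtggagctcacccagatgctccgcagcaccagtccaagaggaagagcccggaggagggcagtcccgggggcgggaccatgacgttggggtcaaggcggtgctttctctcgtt
Car9: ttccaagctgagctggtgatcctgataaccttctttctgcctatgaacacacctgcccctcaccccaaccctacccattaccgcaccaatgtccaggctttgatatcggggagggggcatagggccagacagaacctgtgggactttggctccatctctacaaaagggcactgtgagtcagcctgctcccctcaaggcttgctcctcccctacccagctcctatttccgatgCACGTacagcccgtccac
The Ldha promoter held 5 matches, of which 4 came from 2 CACGTG sites. Hk2 and Pgk1 held 2 matches each, and Egln3 and Car9 held 1 each. These 5 were chosen among members that rose and hold the core, and are not typical of the rest. The core was in 9 of 19 promoters (47.4%) of the 12 members higher in both cell types and in 14 of 29 promoters (48.3%) of the other members. Eno1, Tpi1, Tkt and Pgd rose in both cell types with no ACGTG in the window, while Bnip3 and Pfkm hold it and fell in keratinocytes. Windows without ACGTG may hold another form of the core. These matches are letters in a window, and no binding was measured.

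In Mi2 keratinocytes most of the pathway stood above WT: 18 of the 33 members rose, 3 fell and 12 did not pass the test, with a median log2 change of 0.82. Of all 14461 genes tested 28.2% were called (15.1% higher and 13.1% lower), with a median log2 change of -0.03. The test was limma on log2(value + 1), and a gene was called at an adjusted p under 0.05. Of the 16 enzymes from hexokinase to lactate dehydrogenase, 11 rose and 1 fell. The 33 members summed to 48181 and 37615 normalized reads in Mi2 epidermis, against 16833 and 17839 in WT epidermis. Per 1000000 reads of each library the sums were 4739 and 4859 in Mi2 and 2422 and 2757 in WT epidermis.

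**Figure D1:**
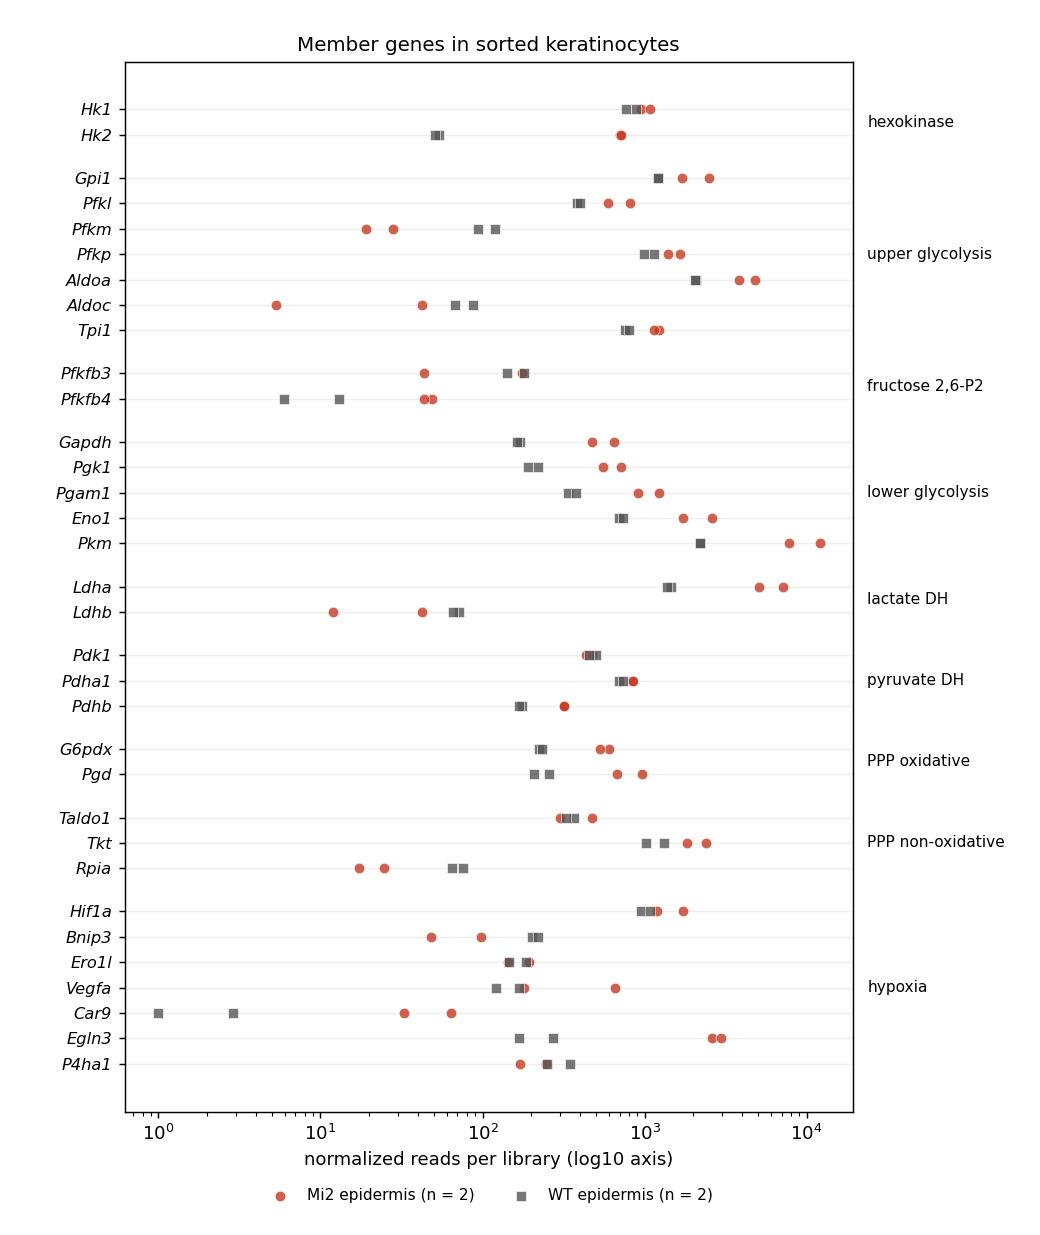
Normalized reads (log10 axis) of the 33 members in each keratinocyte library, Mi2 as circles and WT as squares, with genes grouped by role. Hk2, Egln3 and Car9 show the widest gaps between the groups, while Pfkm, Rpia and Bnip3 lie lower in both Mi2 libraries.

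Hexokinases trap glucose in the cell as its phosphate. Hk2, the inducible isoenzyme, had 703 and 718 normalized reads in Mi2 epidermis, against 53.6 and 50.8 in WT epidermis. The groups lay far apart, and the log2 change was 3.74 (SE 0.209, adjusted p = 4.08e-04). Hk1, the broadly expressed isoenzyme, had 943 and 1079 in Mi2 and 770 and 883 in WT epidermis. Its groups did not overlap, but the change of 0.29 did not pass the test (adjusted p = 0.289).

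Among the enzymes of upper glycolysis 4 of 7 rose, each by a modest amount. Aldoa, the main aldolase of many tissues, had 4826 and 3833 normalized reads in Mi2 epidermis, against 2073 and 2047 in WT epidermis (log2 change 1.06, SE 0.214, adjusted p = 0.0133). On the log2 scale the liver-type phosphofructokinase gene Pfkl rose by 0.82, the glucose-phosphate isomerase gene Gpi1 by 0.77 and the triose-phosphate isomerase gene Tpi1 by 0.60. Pfkm, the muscle-type phosphofructokinase, went the other way, with 27.9 and 19.1 in Mi2 and 120 and 94.4 in WT epidermis (log2 change -2.16, SE 0.346, adjusted p = 0.00641). The platelet-type isoenzyme Pfkp, the most abundant of the 3 per kilobase of transcript in each epidermal library, had a log2 change of 0.52 that did not pass the test (adjusted p = 0.0904). Aldoc, the brain-type aldolase, had 5.31 and 42.2 normalized reads in Mi2 epidermis, against 67.5 and 87.1 in WT epidermis. Both Mi2 libraries were below WT but far from each other, and the log2 change of -2.23 had an SE of 0.818 (adjusted p = 0.0802).

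The genes Pfkfb3 and Pfkfb4 encode enzymes that set the level of fructose 2,6-bisphosphate, an activator of phosphofructokinase. Pfkfb4 had 49.1 and 43.6 normalized reads in Mi2 epidermis, against 5.95 and 13.1 in WT epidermis, and rose, with a log2 change of 2.26 (SE 0.494, adjusted p = 0.0173). Pfkfb3 had 43.8 and 174 in Mi2 and 142 and 180.0 in WT epidermis. Its groups overlapped, and no call was made (adjusted p = 0.296).

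All 5 members of lower glycolysis rose, between 1.57 and 2.14 on the log2 scale. Pkm, which encodes muscle-type pyruvate kinase, had 12030 and 7742 normalized reads in Mi2 epidermis, against 2192 and 2194 in WT epidermis. Its log2 change was 2.14 (SE 0.268, adjusted p = 0.00317), and the 2 Mi2 libraries differed more from each other than the 2 WT libraries did. Per kilobase of transcript, Pkm had the highest level of all members in both Mi2 libraries (4973 and 3200 normalized reads per kilobase), whereas Aldoa had it in both WT libraries (1315 and 1299). Gapdh, the step that reduces NAD+, rose by 1.73, Pgk1, the first step to make ATP, by 1.61, Eno1, an enolase, by 1.57, and Pgam1, a phosphoglycerate mutase, by 1.57. The levels of these 5 genes are uncertain, because their transcripts share sequence with pseudogenes and other genes, by the shares given with the Treg values. Ldha, the lactate dehydrogenase subunit that favours lactate production, had 7186 and 5046 normalized reads in Mi2 epidermis, against 1465 and 1373 in WT epidermis (log2 change 2.09, SE 0.238, adjusted p = 0.00231). Ldhb, the other subunit, had 11.9 and 42.2 in Mi2 and 71.5 and 65.3 in WT epidermis. Both Mi2 libraries were lower than WT without passing the test (log2 change -1.55, SE 0.567, adjusted p = 0.0799).

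At the gate to the mitochondrion the changes were small. Pdhb, a subunit of pyruvate dehydrogenase, had a log2 change of 0.88 (SE 0.202, adjusted p = 0.0196). Its partner subunit Pdha1 and the inhibitory kinase Pdk1 had log2 changes of 0.24 and -0.08, and neither passed the test.

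In the pentose phosphate pathway both oxidative enzymes rose. G6pdx, the NADPH-forming entry step, had 604 and 531 normalized reads in Mi2 epidermis, against 223 and 232 in WT epidermis (log2 change 1.31, SE 0.195, adjusted p = 0.00521). Pgd, the next NADPH-forming step, had 963 and 680 in Mi2 and 208 and 256 in WT epidermis (log2 change 1.81, SE 0.241, adjusted p = 0.00375). For both genes every Mi2 library lay above every WT library. The non-oxidative enzymes were mixed: the transketolase gene Tkt rose by 0.86, the transaldolase gene Taldo1 had a log2 change of 0.12 (adjusted p = 0.75), and the ribose-phosphate isomerase gene Rpia fell by 1.71, with 17.2 and 24.5 normalized reads in Mi2 and 75.4 and 64.6 in WT epidermis.

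The 7 hypoxia members split, with 2 higher, 1 lower and 4 not called. Egln3, a HIF prolyl hydroxylase that is itself a HIF target, had 2595 and 2978 normalized reads in Mi2 epidermis, against 167 and 273 in WT epidermis (log2 change 3.70, SE 0.265, adjusted p = 7.54e-04). Car9, a membrane carbonic anhydrase, had 63.7 and 32.7 in Mi2 epidermis and 0.992 and 2.90 in WT epidermis. These values rest on 48 and 24 reads in Mi2 and on 1 and 4 reads in WT libraries, and the log2 change was 4.07 (SE 0.638, adjusted p = 0.00603). Bnip3, a mitophagy receptor and HIF target, fell by 1.61, with 47.8 and 98.1 normalized reads in Mi2 and 202 and 221 in WT epidermis. Vegfa, an angiogenic factor, had 179 and 653 in Mi2 and 121 and 168 in WT epidermis. Its 2 Mi2 libraries differed widely, and the log2 change of 1.25 had an SE of 0.548 (adjusted p = 0.126). Hif1a itself had a log2 change of 0.49, P4ha1, a collagen prolyl hydroxylase, -0.51, and Ero1l, an oxidase of the endoplasmic reticulum, 0.02, and none of the 3 passed the test.

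Single libraries moved the keratinocyte counts, and each fit without 1 of them leaves 1 library in a group. The share of all genes called moved in the same order as the member counts. It was lowest without WT replicate 1 and highest without Mi2 replicate 2. Without WT replicate 1, 10 members rose and 0 fell. Without WT replicate 2 these counts were 12 and 1, without Mi2 replicate 1 they were 15 and 3, and without Mi2 replicate 2 they were 20 and 6. The calls of Hk2, Gapdh, Pgk1, Pgam1, Eno1, Pkm, Ldha, Pgd, Car9 and Egln3 were made in all 4 of these fits. Gpi1, Pfkl, Tpi1 and Tkt lost theirs when any library except Mi2 replicate 2 was left out. Those of Aldoa, Pdhb, Rpia and Bnip3 ended without either WT library, and those of Pfkm, Pfkfb4 and G6pdx without WT replicate 1, with each direction kept.

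Other measures moved with the same groups. The 6 cycling markers (Mki67, Top2a, Cdk1, Ccnb1, Bub1 and Plk1) all rose, and summed to 8364 and 7806 normalized reads in Mi2 epidermis, against 1470 and 2808 in WT epidermis. The share of reads from mitochondrially encoded genes was 29.7% and 15.5% in Mi2 and 13.8% and 12.9% in WT epidermis. With these genes left out, the median log2 change of all genes moved to -0.27, with 1531 genes higher and 2749 lower, against 2185 and 1900 as deposited; 13 members then rose and 3 fell, and the calls of Gpi1, Pfkl, Tpi1, Tkt and Pdhb ended. Without the 50 most abundant genes that median was -0.16, with 1740 genes higher and 2101 lower, and 15 members rose and 3 fell. The keratinocyte markers also shifted: Krt1, a keratin of differentiating layers, fell (log2 change -1.67, adjusted p = 0.0175), while Krt10, its partner (-1.60, adjusted p = 0.0717), and the basal keratin Krt14 (0.92, adjusted p = 0.136) did not pass the test. The 6 Treg markers summed to 340 and 425 in Mi2 and 887 and 1131 in WT epidermis, almost all of it Ikzf2 (means 347 in Mi2 and 979.8 in WT epidermis), whereas Foxp3 averaged 31.5 in Mi2 and 20.4 in WT epidermis and Cd4 was at 0 in all 4 libraries. The 4 erythroid markers summed to 121 and 213 in Mi2 and 548 and 1599 in WT epidermis. Marker sums of B cells, dendritic cells, melanocytes, endothelium and muscle also had no overlap between the groups but reached at most 62.4 normalized reads in any library. The part of each of these in the results was not tested.

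Genes of the same pathways outside the member list changed less uniformly in keratinocytes. Of 72 tested, 18 rose and 10 fell, with a median log2 change of 0.06, where 15.1% of all genes were called higher and 13.1% lower. Among other glycolytic isoenzymes and side enzymes 4 of 12 rose and 3 fell. Fbp1, a gluconeogenic phosphatase, had 158 and 131 normalized reads in Mi2 epidermis and 0 reads in both WT libraries, at least 56.0-fold higher against a floor of 3 reads per library. Its paralog Fbp2 and the phosphoglucomutase gene Pgm2 rose, by 3.26 and 1.48, and the bisphosphoglycerate mutase gene Bpgm fell by 2.30 on the log2 scale. Of 20 tested entries of other known HIF targets 7 rose and 2 fell. The lactate exporter gene Slc16a3 rose by 3.73, Plod2, a collagen lysyl hydroxylase, by 3.48, and Car12, a carbonic anhydrase, by 2.14. Among 10 oxygen-sensing genes and HIF subunits, Epas1, which encodes HIF-2α, rose by 1.32 and the elongin gene Tceb2 by 0.86, Egln1, the main HIF prolyl hydroxylase, fell by 0.66, and Arnt had a log2 change of -0.53 that did not pass the test. Of the regulators other than HIF, Myc rose by 1.31, Akt1 by 1.07 and Mtor by 0.92, while Irf4 fell by 3.40. Of 9 genes of pyruvate entry 2 rose, Pcx, pyruvate carboxylase, by 1.10 and Dlat, a pyruvate dehydrogenase subunit, by 0.96, and Pdp1, a pyruvate dehydrogenase phosphatase, fell by 1.45. Of 6 other pentose phosphate genes 1, the sedoheptulose kinase gene Shpk, fell, by 2.43. Without WT replicate 1 the calls of Fbp2, Epas1, Egln1, Tceb2, Myc, Akt1, Mtor, Pcx, Dlat, Pdp1 and Shpk ended, and without WT replicate 2 those of Pgm2, Fbp2, Egln1, Tceb2, Akt1, Mtor, Pcx, Dlat, Pdp1 and Shpk. Without Mi2 replicate 1 those of Egln1, Tceb2, Pcx and Dlat ended.

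In TSLPR WT Tregs of Mi2 mice, 13 of 32 members tested were higher than in Ctl Tregs, 2 were lower and 17 did not pass the test, with a median log2 change of 0.41. Of all 12206 genes tested 27.7% were called (14.7% higher and 13.0% lower), with a median of -0.01. Vegfa was under the filter for low values. Without that filter limma called 0 of 16831 genes. At an unadjusted p under 0.05 there were then 16 members, against 5043 of all genes. Without the trend limma called 9 members higher and 2 lower (1374 and 1059 of all genes), ending the calls of Aldoa, Eno1, Pgd and Rpia. Both edgeR and DESeq2 called 13 members higher and 2 lower. Of the 16 enzymes from hexokinase to lactate dehydrogenase 8 rose and 0 fell, and of 5 pentose phosphate enzymes 4 rose and 0 fell. The 33 members summed to 83918 normalized reads in TSLPR-negative Tregs, 91199 and 107600 in TSLPR WT Tregs of Mi2 mice, and 58189 and 62987 in Ctl Tregs.

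**Figure D2:**
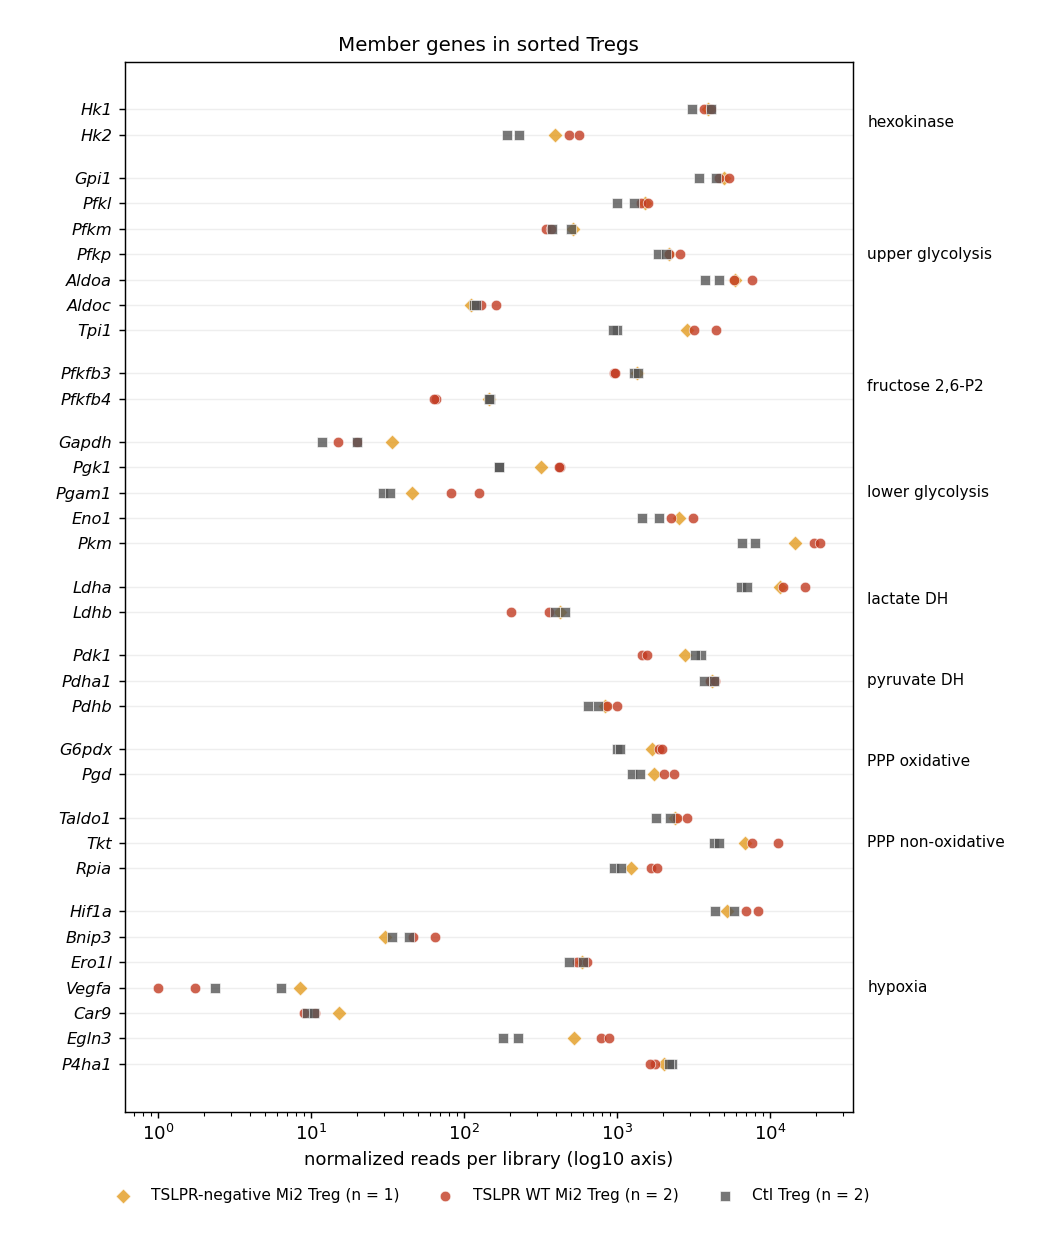
Normalized reads (log10 axis) of the 33 members in each Treg library, grouped by role: TSLPR-negative Tregs of Mi2 mice as diamonds, TSLPR WT Tregs of Mi2 mice as circles and Ctl Tregs as squares. For Hk2, Tpi1, Pkm, Pgk1 and Egln3 the circles lie right of the squares and the diamond lies between them.

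Hk2 had 392 normalized reads in TSLPR-negative Tregs, 486 and 565 in TSLPR WT Tregs of Mi2 mice, and 228 and 191 in Ctl Tregs. TSLPR WT Tregs of Mi2 mice were above Ctl, with a log2 change of 1.32 (SE 0.260, adjusted p = 0.00170), while Hk1 differed by 0.12 and its groups overlapped. Tpi1, the triose-phosphate isomerase gene, had 2890 in TSLPR-negative Tregs, 3169 and 4412 in TSLPR WT Tregs of Mi2 mice, and 996 and 942 in Ctl Tregs. Its log2 change of 1.95 between TSLPR WT Tregs of Mi2 mice and Ctl Tregs (SE 0.218, adjusted p = 2.2e-05) was the largest among the 7 upper glycolysis genes, of which only Aldoa also passed the test, with 0.68 (adjusted p = 0.0306). Pfkl, Pfkm, Pfkp, Gpi1 and Aldoc had log2 changes between -0.28 and 0.40, and none was called.

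Lower glycolysis rose in 4 of 5 members. Pkm had 14671 normalized reads in TSLPR-negative Tregs, 19297 and 21167 in TSLPR WT Tregs of Mi2 mice, and 6583 and 7953 in Ctl Tregs. The last 2 groups did not overlap, and the log2 change between them was 1.48 (SE 0.214, adjusted p = 1.62e-04). Pgam1 rose by 1.68, Pgk1 by 1.31 and Eno1 by 0.69. Ldha had 11655 in TSLPR-negative Tregs, 12263 and 16974 in TSLPR WT Tregs of Mi2 mice, and 6437 and 7131 in Ctl Tregs, a log2 change of 1.09 between TSLPR WT Tregs of Mi2 mice and Ctl Tregs (SE 0.223, adjusted p = 0.00224). Ldhb had 425, then 202 and 360, and 396 and 458 in the same groups, and its change of -0.66 did not pass the test (adjusted p = 0.115).

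Gapdh had only 33.8 normalized reads in TSLPR-negative Tregs, 14.99 and 19.9 in TSLPR WT Tregs of Mi2 mice, and 11.8 and 20.1 in Ctl Tregs, far below its neighbours in the pathway. Of the 50-base words of its transcript, 82.5% also occur in other GENCODE vM21 genes, 215 of which are pseudogenes. The corresponding shares were 72.2% for Eno1, 68.0% for Pgk1, 62.5% for Bnip3, 41.5% for Pgam1 and 34.4% for Pkm, and 0% for Hk2, Egln3, Pgd, Tkt, Rpia, Pdk1, Pfkfb3, Pfkfb4 and Pfkm. Between these lay Pdhb (30.3%), Ldhb (27.0%), Gpi1 (25.3%), Pfkp, Pdha1, Ldha (16.65%), Aldoa, Taldo1 and G6pdx (10.7%), with lower shares for the remaining members. How reads that match several genes were counted is not given in the sources used here, so levels of the first 6 genes are uncertain. The same limit holds, with smaller shares, for the other genes that share words.

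The 2 members that fell were Pfkfb4 and Pdk1. Pfkfb4 had 146 normalized reads in TSLPR-negative Tregs, 66.2 and 63.7 in TSLPR WT Tregs of Mi2 mice, and 148 and 147 in Ctl Tregs, and had a log2 change of -1.17 in TSLPR WT Tregs of Mi2 mice over Ctl (SE 0.330, adjusted p = 0.0163). Pdk1, the kinase that inhibits pyruvate dehydrogenase, had 2781 in TSLPR-negative Tregs, 1468 and 1567 in TSLPR WT Tregs of Mi2 mice, and 3539 and 3226 in Ctl Tregs (log2 change -1.16, SE 0.199, adjusted p = 6.54e-04). For both genes the TSLPR WT libraries of Mi2 mice were the lowest of the 5. Pfkfb3 had a log2 change of -0.45 (adjusted p = 0.124), and the pyruvate dehydrogenase subunits Pdha1 and Pdhb had 0.06 and 0.41, with no call.

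Of the pentose phosphate genes, Tkt rose by 1.06, G6pdx by 0.90, Rpia by 0.79 and Pgd by 0.72. G6pdx had 1696 normalized reads in TSLPR-negative Tregs, 1873 and 1971 in TSLPR WT Tregs of Mi2 mice, and 1002 and 1052 in Ctl Tregs. Every library of Mi2 mice was above both Ctl libraries. Taldo1 had a log2 change of 0.42 that did not pass the test (adjusted p = 0.150).

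Among the 6 hypoxia members tested, only Egln3 was called. It had 528 normalized reads in TSLPR-negative Tregs, 791 and 889 in TSLPR WT Tregs of Mi2 mice, and 181 and 227 in Ctl Tregs (log2 change of TSLPR WT Tregs of Mi2 mice over Ctl 2.04, SE 0.250, adjusted p = 4.3e-05). Hif1a had 5279 in TSLPR-negative Tregs, 8366 and 7006 in TSLPR WT Tregs of Mi2 mice, and 5832 and 4406 in Ctl Tregs. The TSLPR WT libraries of Mi2 mice were the 2 highest, but the change of 0.59 just missed the threshold (adjusted p = 0.0539). Car9 had 15.2, then 10.6 and 8.96, and 9.47 and 10.4 in the same groups, so the groups of 2 overlapped. Vegfa had at most 8.44 normalized reads in any Treg library.

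Leaving out TSLPR WT Mi2 replicate 2 left 7 members higher and 3 lower and ended the calls of Aldoa, Pgam1, Eno1, Pgd, Tkt and Rpia, while without Ctl replicate 1 there were 11 and 1, with the calls of Aldoa, Eno1, Pgd and Pfkfb4 ended, and without Ctl replicate 2 the call of Pfkfb4 ended. In all of these fits the directions of the called members were kept. The 6 cycling markers all rose here too, and summed to 30310 normalized reads in TSLPR-negative Tregs, 47850 and 50440 in TSLPR WT Tregs of Mi2 mice, and 11540 and 5823 in Ctl Tregs. The 6 B cell markers, all above 0 in every Treg library, summed to 956 in TSLPR-negative Tregs, 841 and 1039 in TSLPR WT Tregs of Mi2 mice, and 4380 and 2065 in Ctl Tregs, and the 4 markers of Cd8 T cells and natural killer cells to 1126, to 518 and 733, and to 1272 and 1237. The 6 myeloid markers summed to 441 in TSLPR-negative Tregs, 717 and 776 in TSLPR WT Tregs of Mi2 mice, and 446 and 219 in Ctl Tregs, with Cd14 or S100a8 at 0 in every library. Itgam carries this difference, with means of 599.6 in TSLPR WT Tregs of Mi2 mice and 149 in Ctl Tregs, while Lyz2 averaged 114 and 161 in the same groups. The 3 endothelial markers summed to 4190, to 2146 and 2898, and to 4430 and 4177 in the same order, almost all from Pecam1. In that order the 4 melanocyte markers summed to 672, to 566 and 494, and to 942 and 982, all from Pmel. Of the other endothelial markers, Cdh5 averaged 19.3 in TSLPR WT Tregs of Mi2 mice and 6.545 in Ctl Tregs, without a call. Kdr was at 0 in the 3 libraries of Mi2 mice. The 5 fibroblast markers summed to 88.6 in TSLPR-negative Tregs, 67.0 and 82.6 in TSLPR WT Tregs of Mi2 mice, and 39.1 and 39.3 in Ctl Tregs. Of them only Col1a1 was higher in TSLPR WT Tregs of Mi2 mice than in Ctl Tregs (log2 change 1.495, adjusted p = 0.016). Col1a2 (means 3.865 and 11.9), Col3a1, Pdgfra and Dcn averaged lower there and were under the filter for low values. Of the Treg markers, Ctla4 rose in TSLPR WT Tregs of Mi2 mice relative to Ctl (log2 change 1.46, adjusted p = 0.00132), and the other 5 did not pass the test. The part of these in the results was not tested.

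Of 74 other tested genes of these pathways, 8 rose and 8 fell in TSLPR WT Tregs of Mi2 mice relative to Ctl Tregs. Their median log2 change was -0.02. Of all genes tested there, 14.7% were called higher and 13.0% lower. Arnt2, a dimerisation partner related to ARNT, was the only called gene of 12 in oxygen sensing and rose by 2.09. Slc16a3 rose by 1.38, Cited2, a HIF-induced inhibitor of HIF transcription, by 1.45, and Ndrg1, a stress-response gene, by 1.04, while Kdm3a, a histone demethylase and HIF target, fell by 0.80. Of the side enzymes Pgm2 rose by 0.92, while Eno3, the muscle enolase, fell by 1.55, Pfkfb2, a further isoenzyme of the Pfkfb family, by 1.26 and Adpgk, an ADP-dependent glucokinase, by 0.93. Akt1 and Irf4 rose, by 0.99 and 1.02, and Foxo1 and Foxo3 fell, by 0.74 and 0.83. None of 11 genes of pyruvate entry and none of 9 other pentose phosphate genes was called by limma, with Pdk3 (log2 change 0.58, adjusted p = 0.0621) and Prps2 (-0.29, adjusted p = 0.315) nearest to the threshold. The call of Kdm3a ended without TSLPR WT Mi2 replicate 2, that of Foxo1 without either TSLPR WT Mi2 library, and that of Foxo3 without Ctl replicate 2 or TSLPR WT Mi2 replicate 1.

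The single TSLPR-negative library was set against each of the other Treg groups in the same fit, in which it was assumed to vary as they do. Against TSLPR WT Tregs of Mi2 mice 0 of 32 members were called by limma, by edgeR or by DESeq2, where limma called 0.942% of all genes (0.737% higher and 0.205% lower). At an unadjusted p under 0.05 there were 4 of 32 members, where 1454 of all 12206 genes tested had such a p. The 4 were Pdk1 and Pfkfb4 with higher and Pgam1 and Egln3 with lower values in the TSLPR-negative library. Pdk1 had a log2 difference of 0.87 (SE 0.244, adjusted p = 0.118) and Pfkfb4 of 1.16 (SE 0.404, adjusted p = 0.231), while Pgam1 had a difference of -1.14 and Egln3 of -0.67. With 1 library in the group these comparisons have a wide error, and a missed threshold does not show that the groups were alike.

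Against Ctl Tregs 3 of 32 members were higher in the TSLPR-negative library and 0 were lower, where 3.15% of all genes were called (2.63% higher and 0.516% lower). The 3 were Tpi1 (log2 change 1.58, SE 0.266, adjusted p = 0.00583), Egln3 (1.38, SE 0.306, adjusted p = 0.0228) and Pkm (1.02, SE 0.262, adjusted p = 0.0488). Pkm was no longer called without Ctl replicate 1. This comparison shares its Ctl libraries with the preceding one. For all 15 members called between TSLPR WT Tregs of Mi2 mice and Ctl Tregs, the TSLPR-negative value lay between the 2 group means, as it did for 90.7% of all 3383 genes called there. On a scale where 0 is the Ctl mean and 1 the TSLPR WT mean, the median member stood at 0.68 and the median of all called genes at 0.54. The genes were chosen by a difference between the same 2 means, which favours a place between them. The positions only describe 1 library, and their difference was not tested. Eno1 stood at 0.90, Tpi1 at 0.81 and G6pdx at 0.80, whereas Pfkfb4 stood at 0.01, Pdk1 at 0.24, Pgam1 at 0.32 and Rpia at 0.36. Of the 90 other pathway genes 74 were tested, 0 were called by limma against TSLPR WT Tregs of Mi2 mice and 1, Arnt2, was higher than in Ctl Tregs (log2 change 1.54, adjusted p = 0.0189).

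The keratinocyte and Treg comparisons share no library, and their changes are set side by side here. Called higher in both were 12 members, which are 66.7% of the 18 higher in keratinocytes and 92.3% of the 13 higher in TSLPR WT Tregs of Mi2 mice. Over the 9560 symbols tested in both tables, 475 were called higher in both, which are 34.3% of the 1383 higher in keratinocytes and 34.3% of the 1383 higher in Tregs. The 12 members were Hk2, Aldoa, Tpi1, Pgk1, Pgam1, Eno1, Pkm and Ldha of glycolysis, G6pdx, Pgd and Tkt of the pentose phosphate pathway, and Egln3. No member was called lower in both. Pfkfb4 and Rpia were called in opposite directions, as were 255 of the 9560 symbols (2.67%), Pfkfb4 with 2.26 in keratinocytes and -1.17 in Tregs, and Rpia with -1.71 and 0.79. Across the 32 members tested in both, the log2 changes had a Pearson correlation of 0.42 and a Spearman correlation of 0.46. Over the 9560 symbols the values were 0.24 and 0.30. Genes do not count as replicates, and these values only describe the 2 comparisons.

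**Figure D3:**
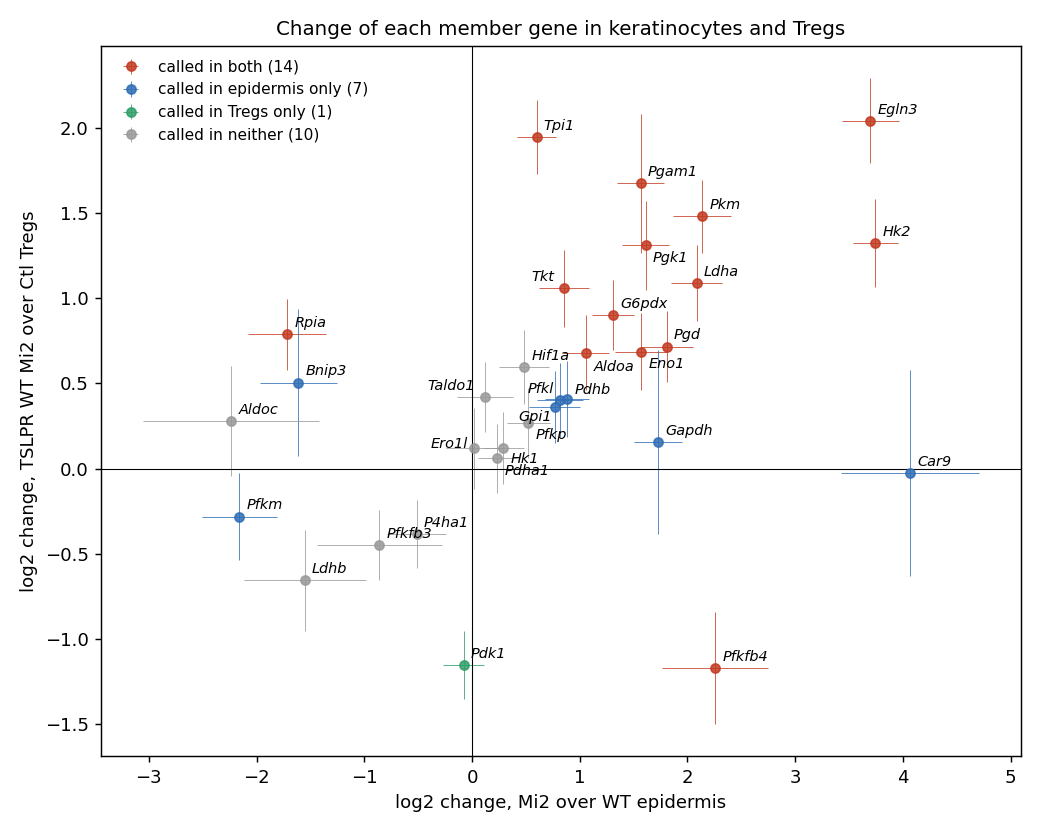
Log2 change of 32 members in Mi2 over WT keratinocytes (x axis) and in TSLPR WT Tregs of Mi2 mice over Ctl Tregs (y axis), with standard errors as bars and colours for the tests passed. The 14 genes called in both lie in the upper right, except Pfkfb4 (lower right) and Rpia (upper left).

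Shares of isoenzymes within their families were measured from levels per kilobase of RefSeq transcript. Hk2 made up 35.97% and 33.4% of the summed hexokinase level (Hk1 and Hk2) in Mi2 epidermis, against 4.98% and 4.16% in WT epidermis. In reads, the Mi2 shares were 42.7% and 39.95%, with 95% Wilson intervals of 40.0 to 45.5% and 37.3 to 42.6%, and the WT shares 6.51% and 5.44%, with intervals of 5.02 to 8.39% and 4.33 to 6.82%. In Tregs the Hk2 share per kilobase was 6.98% in the TSLPR-negative library, 9.00% and 9.43% in TSLPR WT Tregs of Mi2 mice, and 5.26% and 3.35% in Ctl Tregs, so Hk1 remained the main isoenzyme in every library.

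Ldhb made up 0.234% and 1.17% of the lactate dehydrogenase level in Mi2 epidermis, against 6.44% and 6.29% in WT epidermis. In Tregs its share was 4.90% in the TSLPR-negative library, 2.27% and 2.91% in TSLPR WT Tregs of Mi2 mice, and 7.995% and 8.31% in Ctl Tregs. In both cell types the libraries of the Mi2 groups were below their controls. The Ldha and Ldhb transcripts share sequence with pseudogenes, as given above, which limits these shares. The share of Pfkm in the phosphofructokinase level was 1.55% and 1.32% in Mi2 epidermis and 10.9% and 7.92% in WT epidermis; in Tregs it was 16.1% in the TSLPR-negative library, 11.7% and 10.9% in TSLPR WT Tregs of Mi2 mice, and 15.4% and 17.1% in Ctl Tregs. The share of Aldoc in the aldolase level was 0.102% and 1.02% in Mi2 epidermis and 2.94% and 3.81% in WT epidermis, while the Treg groups of 2 overlapped. With groups of 2 against 2, an exact permutation test of a single share cannot reach a p under 0.333, and none was run.

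**Figure D4:**
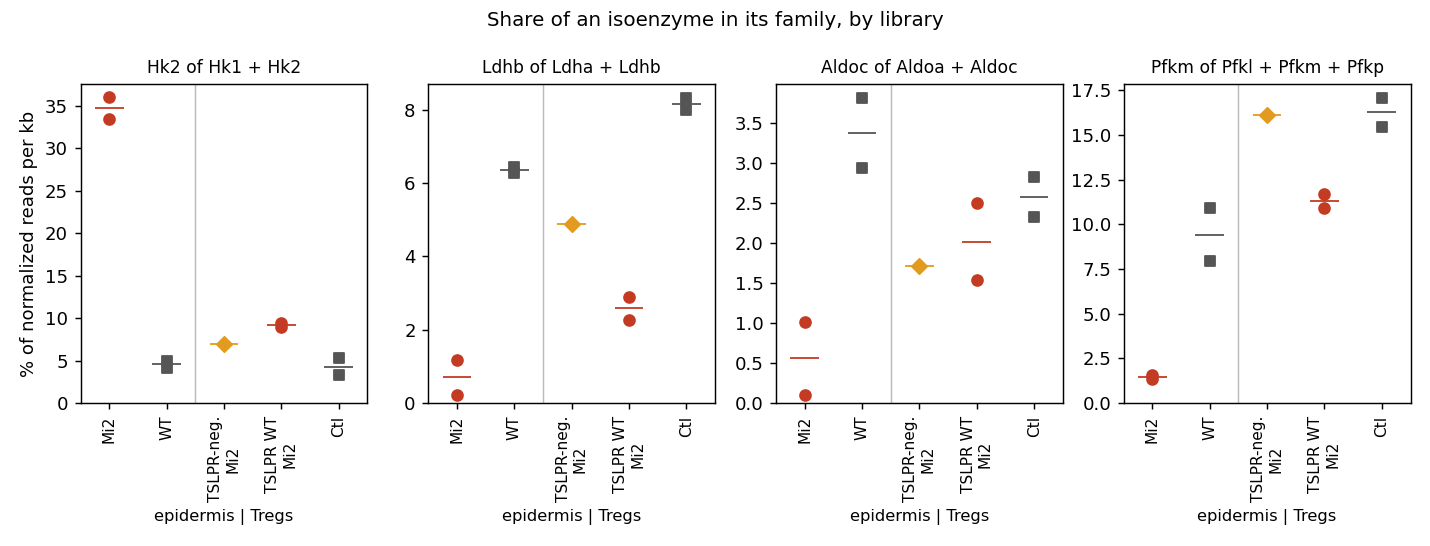
Share (% of normalized reads per kilobase) of Hk2, Ldhb, Aldoc and Pfkm in their isoenzyme families, by library, with short lines at group means and a vertical line between keratinocytes and Tregs. The Hk2 share is higher, and the Ldhb and Pfkm shares are lower, in Mi2 than in WT epidermis and in TSLPR WT Tregs of Mi2 mice than in Ctl Tregs.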

How the data were processed

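RNA-sequencing libraries of sorted keratinocytes and Tregs were analysed from 2 deposited tables. Both hold a normalized signal, which is whole reads times 1 factor per library as scaled by the authors, and dividing by that factor gave whole numbers for 100% of values (tolerance 0.05). Per the file headers, the Treg table was made with HOMER, which counted exonic reads per RefSeq transcript (mm9) with no strand setting. DESeq2 was then run over 7 libraries, of which 5 are used here. The normalized totals of these 5 lay between 25855624 and 25855635. The Treg values were thus scaled to equal library totals and not by DESeq2 size factors. The counting program and build of the epidermal table are not stated there or in the labels. The tools bcl2fastq 1.8.3, STAR and DESeq2 and the builds mm9 and mm10 are listed in the submitters' processing notes, and the labels' protocols name 2 library kits without saying which sample had which, so overlapping antisense reads may not be separable.

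Genes with a mean of at least 10 were tested with limma 3.58.1 (R 4.3.3) with an intensity trend on log2(value + 1), with Benjamini-Hochberg adjustment over all genes tested and a threshold of 0.05. The 4 epidermal libraries were fitted alone and the 5 Treg libraries in 1 fit, with groups as the only term. A fold on this scale understates the change of low genes. Alternatives were edgeR 4.0.16 and DESeq2 1.42.0 on the recovered reads, other scalings, filters and pseudocounts, and leaving out each library. The limma fit was tested on simulated data. Levels per kilobase use the RefSeq lengths of the Treg table for both tables. Intervals cover counting error only.

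The members and gene lists were chosen with earlier results of these data known. Of each list outside the members, up to 4 tested genes with the smallest p of a comparison may be named, and every member may be. Some genes of the lists outside the members are not reported here. Replicate numbers were not used to pair libraries.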

Additional observations from a re-analysis of the deposited data

Results flagged for a closer look

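For 4 of 32 members tested in both cell types, both Mi2 libraries lay on 1 side of WT in keratinocytes and both TSLPR WT Mi2 libraries on the other side of Ctl in Tregs. These are 12.5% of the members, and 1439 of all 9560 symbols tested in both (15.1%) met the same rule. The log2 change of Pfkfb4 was 2.26 in keratinocytes and -1.17 in Tregs, and that of Rpia was -1.71 and 0.79; all 4 of these passed the limma test. That of Bnip3 was -1.61 in keratinocytes and 0.50 in Tregs, and that of Aldoc was -2.23 and 0.28; of these only Bnip3 in keratinocytes passed. The difference between the cell types was not tested, since the 2 tables were scaled separately.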

How the results depend on the processing

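The count of members called in Mi2 against WT epidermis was 21 and ranged from 10 to 26 when single libraries were left out (10 without WT replicate 1, 13 without WT replicate 2, 18 without Mi2 replicate 1, 26 without Mi2 replicate 2); under the other alternatives it was 16 to 24. Between TSLPR WT Mi2 Tregs and Ctl Tregs it was 15 and ranged from 10 to 15 without single libraries. With no filter on low values it was 0. The count was also 0 then for TSLPR-negative against Ctl Tregs (3 as reported), which limma without the trend also gave as 0. With no filter 16 and 7 members had an unadjusted p under 0.05 in these 2 comparisons, against 5043 and 1942 of all 16831 genes. Without the trend 8 members had such a p in the second, against 1545 of all 12206 genes. The cause was not tested. TSLPR-negative against TSLPR WT Mi2 Tregs gave 0 under every alternative, with 3 to 6 members at an unadjusted p under 0.05, and TSLPR-negative against Ctl Tregs gave 2 to 3 without single libraries. The call of Pkm between TSLPR-negative and Ctl Tregs also ended under TMM and median-of-ratios scaling and with sums over transcripts. No called member changed direction. The share of all genes called moved with the member counts when single epidermal libraries were left out. In the main fit of TSLPR-negative against TSLPR WT Mi2 Tregs, 1454 of all 12206 genes had an unadjusted p under 0.05. With the replicate number as a block the counts were 24 for epidermis and 17 for TSLPR WT Mi2 against Ctl Tregs. These fits called 35.8% of all genes in each comparison. The numbers share no stated batch, there are only 2 pairs, and deviations of same-numbered libraries correlated at 0.12 and 0.09, so they were not taken as pairs. Few reads in some libraries limit Car9, Fbp1, Fbp2, Aldoc, Pfkfb4, Ldhb and, in Tregs, Vegfa. The same holds for Pfkm (21 and 14 reads) and Rpia (13 and 18 reads) in Mi2 epidermis and for Pgam1 (25 and 41 reads) in Ctl Tregs.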
